A study of Mus musculus with 7 samples.

Results

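The genes described are the 10 neuronal nicotinic acetylcholine receptor subunits Chrna2, Chrna3, Chrna4, Chrna5, Chrna6, Chrna7, Chrna9, Chrnb2, Chrnb3 and Chrnb4, out of 19938 genes measured on 7 microarrays. They were chosen by name, and each was read by the 1 probe set that the platform annotation pairs with its symbol alone. The arrays carried RNA of cells sorted by fluorescence from whole bowel of Wnt1-Cre;R26R-EYFP mouse embryos at embryonic day 17.5, with 4 YFP-positive samples (enteric neural crest-derived cells, ENCDC) and 3 YFP-negative samples (the other cells of the bowel, non-ENCDC). All samples shared the genotype, in which a recombinase driven by Wnt1 sequences switches on the yellow reporter EYFP in the neural crest, so that every later crest descendant keeps the colour. The YFP-positive samples are therefore expected to hold neurons, glia and progenitors. They may also carry RNA of other bowel cells, which was not tested. The mean level of the 12 epithelium markers described below was 7.92 to 8.99 on YFP-positive and 8.45 to 8.61 on YFP-negative arrays. The labels do not say whether samples came from separate animals or litters or were pooled. P-values then measure only the spread between these samples, which may be technical.

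Nicotinic receptors are cation channels built as a ring of subunits around a pore that opens when acetylcholine binds. The alpha subunits Chrna2, Chrna3, Chrna4 and Chrna6 need a beta subunit, Chrnb2 or Chrnb4, to form the binding site, whereas Chrna7 and Chrna9 can form channels without a beta subunit. Chrna5 and Chrnb3 are accessory subunits that join such pairs. In autonomic ganglia, including those of the bowel, receptors with the Chrna3 and Chrnb4 products carry much of fast synaptic transmission, and in the brain the commonest pair is Chrna4 with Chrnb2.

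The sorted populations differed broadly in their markers, on the log2 scale used throughout. All 14 measured pan-neuronal markers were higher in YFP-positive cells, with list means of 8.30 to 8.95 on YFP-positive and 5.10 to 5.43 on YFP-negative arrays, as were all 8 measured ENS progenitor markers and 7 of 8 glial markers, where 8.39% of all genes were higher at a limma adjusted p under 0.05. All 10 myeloid markers, 9 of 10 fibroblast and mesenchyme markers and 6 of 10 smooth muscle markers were lower, where 9.11% of all genes were lower. The smooth muscle count depended on single arrays: in limma it was 0 without YFP-positive array 2, YFP-negative array 1 or YFP-negative array 2, 3 with YFP-positive array 1 or 3 left out, and 4 with YFP-negative array 3 left out, while all 10 were lower at an unadjusted p under 0.05 over the 7 arrays. Of 12 epithelium markers 0 passed in limma (1 at an unadjusted p under 0.05), and their mean level lay at 7.92 to 8.99 on YFP-positive and 8.45 to 8.61 on YFP-negative arrays. With YFP-positive arrays 3 and 4 left out, 3 of the 12 were lower.

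Of the 10 neuronal subunit genes, 6 were higher in YFP-positive cells and 0 were lower (limma adjusted p under 0.05, with 0 lower also at an unadjusted p under 0.05). By the same adjusted threshold 8.39% of all genes were higher and 9.11% lower. The 6 were Chrna3, Chrnb4, Chrna5, Chrnb2, Chrna7 and Chrna4, and for each of them the groups did not overlap, as was the case with YFP-positive higher for 13.5% of all genes. The other 4, Chrna2, Chrna6, Chrna9 and Chrnb3, did not pass. All 6 differences were at least 2-fold, which 3.12% of all genes reached as higher genes, and 3 were at least 8-fold, which 0.346% reached. The median log2 difference of the 10 genes was 1.29, against 0.01 for all genes tested. In bulk samples of this kind, fewer cells of a type and less RNA per cell cannot be told apart.

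**Figure D1:**
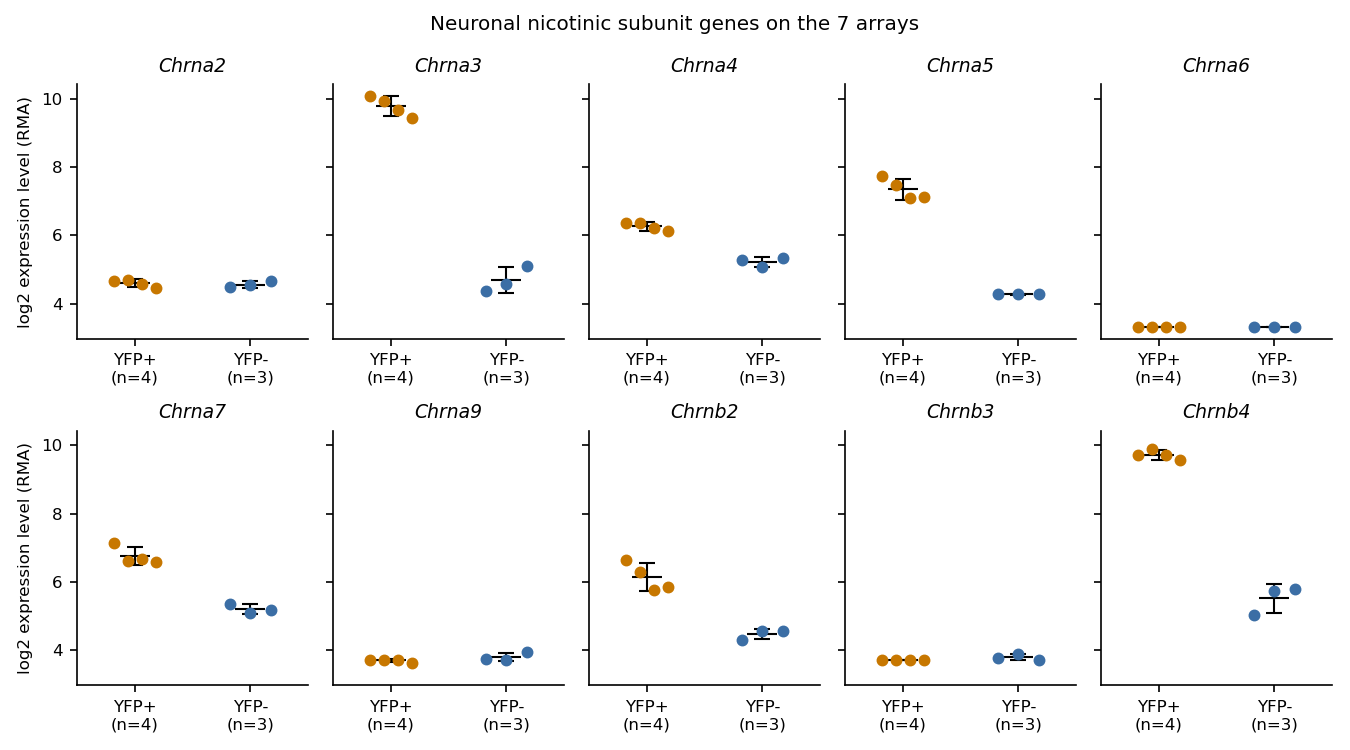
Log2 expression level (RMA) of each of the 10 subunit genes on the 4 YFP-positive (orange) and 3 YFP-negative (blue) arrays; points are arrays and bars show the mean and SD. Chrna3 and Chrnb4 lie above 9.4 on every YFP-positive array and below 5.8 on every YFP-negative array. Chrna2 overlaps between the groups, and Chrna6, Chrna9 and Chrnb3 meet at a shared value.

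Chrna3, the alpha subunit of ganglionic receptors, had the largest increase in YFP-positive cells of all 19938 genes, counting rises only (the largest fall of any gene was -5.31). Its log2 level on YFP-positive arrays 1 to 4 was 10.08, 9.94, 9.67 and 9.43, and on YFP-negative arrays 1 to 3 it was 4.36, 4.57 and 5.10. The lowest YFP-positive array thus stood more than 4 log2 units above the highest YFP-negative array. The difference was 5.10 ± 0.22 (SE), a fold of 34.4 (limma adjusted p = 3.41e-05, 95% interval 4.59 to 5.62).

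Chrnb4, which encodes the beta subunit that pairs with the Chrna3 product in ganglia, ranked 14 among all genes ordered from the largest rise to the largest fall. Its log2 level was 9.70, 9.90, 9.72 and 9.56 on YFP-positive arrays 1 to 4 and 5.03, 5.72 and 5.79 on YFP-negative arrays 1 to 3. The YFP-positive arrays lay close together (SD 0.14, n = 4), YFP-negative array 1 was the low one of its group, and the groups were far apart. The difference was 4.21 ± 0.19 (SE), a fold of 18.4 (limma adjusted p = 3.76e-05, 95% interval 3.75 to 4.66).

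Chrna5, the accessory subunit that changes the calcium permeability and desensitization of receptors it joins, ranked 66 in the same order, which sets no large fall ahead of a rise. Its log2 level was 7.72, 7.47, 7.09 and 7.11 on YFP-positive arrays 1 to 4, and it lay between 4.26 and 4.28 on all 3 YFP-negative arrays. YFP-positive arrays 1 and 2 were the high ones. The difference was 3.08 ± 0.16 (SE), a fold of 8.45 (limma adjusted p = 5.89e-05, 95% interval 2.70 to 3.46).

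Chrna5, Chrna3 and Chrnb4 lie next to each other on mouse chromosome 9 with no other RefSeq gene between them. Chrna3 and Chrnb4 are read from the minus strand and Chrna5 from the plus strand, and the RefSeq spans of Chrna5 and Chrna3 share 1304 bases at their facing ends. Where the array's probes lie within these spans was not used here, so signal from the shared stretch cannot be assigned to either gene. The increase did not extend over the neighbourhood to a like degree. Of the 3 nearest measured genes on each side, Hykk (-0.12 ± 0.07), AY074887 (-0.02 ± 0.14), Psma4 (0.07 ± 0.08), Fbxo22 (0.15 ± 0.13) and Nrg4 (0.00 ± 0.11) did not pass, and the ubiquitin-conjugating enzyme gene Ube2q2, next after Chrnb4, rose by 0.47 ± 0.10 (log2 difference ± SE for all 6, limma adjusted p = 0.0148). With YFP-positive arrays 3 and 4 left out, Ube2q2 did not pass (limma adjusted p = 0.0548).

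**Figure D2:**
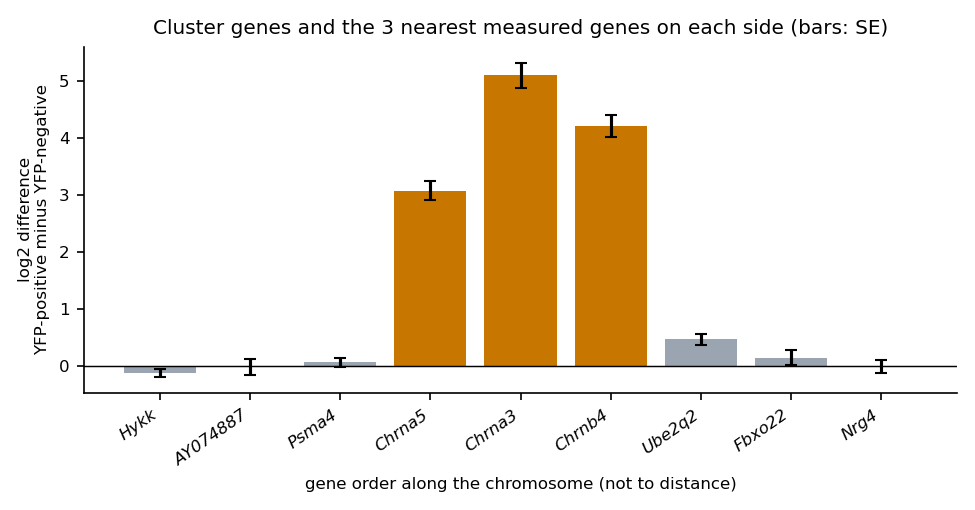
Log2 difference (YFP-positive minus YFP-negative, bars SE) of the cluster genes Chrna5, Chrna3 and Chrnb4 in orange and of the 3 nearest measured genes on each side in grey, in chromosomal order and not to distance. The cluster genes lie between 3.08 and 5.10 and the highest neighbour, Ube2q2, at 0.47.

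The promoter windows of the cluster genes are shown because these genes moved together. They are RefSeq windows of build GRCm38.p6, written 5′ to 3′, from 250 bases before to 50 after the transcription start, and capitals mark every GC box (GGGCGG, the core of Sp-family sites) and E box (CANNTG, the core of sites for basic helix-loop-helix factors), each on either strand. For Chrna5, which has 2 windows, the one with GC boxes is printed.
Chrna3, chr9:55026513-55026812, minus strand: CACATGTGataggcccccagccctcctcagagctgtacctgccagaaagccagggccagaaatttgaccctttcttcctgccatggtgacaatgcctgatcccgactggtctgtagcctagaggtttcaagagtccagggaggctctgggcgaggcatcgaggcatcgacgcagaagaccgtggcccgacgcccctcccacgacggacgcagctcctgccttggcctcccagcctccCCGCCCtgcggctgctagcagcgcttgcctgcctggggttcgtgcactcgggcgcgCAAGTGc
Chrnb4, chr9:55048495-55048794, minus strand: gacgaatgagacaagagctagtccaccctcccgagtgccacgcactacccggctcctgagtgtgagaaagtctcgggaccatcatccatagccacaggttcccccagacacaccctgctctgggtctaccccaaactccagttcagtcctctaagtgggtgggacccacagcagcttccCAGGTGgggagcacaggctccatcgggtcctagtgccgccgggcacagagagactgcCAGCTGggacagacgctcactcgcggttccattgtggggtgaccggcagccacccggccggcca
Chrna5, chr9:54981238-54981537, plus strand: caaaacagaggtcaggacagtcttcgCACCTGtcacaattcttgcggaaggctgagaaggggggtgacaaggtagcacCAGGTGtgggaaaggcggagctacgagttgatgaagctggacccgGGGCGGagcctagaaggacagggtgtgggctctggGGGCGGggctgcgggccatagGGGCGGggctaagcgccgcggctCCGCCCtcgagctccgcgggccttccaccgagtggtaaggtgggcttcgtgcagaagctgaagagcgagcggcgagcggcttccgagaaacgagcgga
The printed Chrna5 window, chosen for its GC boxes, held 4, that of Chrna3 held 1 and that of Chrnb4 held 0. The other Chrna5 window held 0, and 35.7% of 32851 windows of all genes held at least 1. GC content was 65.0% in the printed Chrna5 window, 64.3% in that of Chrna3 and 63.0% in that of Chrnb4. The other Chrna5 window was at 41.3%, and the median over all windows was 52.7%. E boxes numbered 3 in Chrna3, of which 2 overlap at its far end, and 2 each in Chrnb4 and Chrna5, and 72.3% of all windows held at least 1. The letters ACAATG, a form of the Sox factor core, occurred once each in Chrna3, Chrnb4, the other Chrna5 window and Chrna9, whose level did not pass the test (12.6% of all windows), and ACAAAG in none of the 8 windows of 7 subunit genes found in the table (18.7% of all windows). The window of Chrna4 (GC content 74.3%) had 3 GC boxes, and those of Chrnb2 (59.0%) and Chrna7 (70.0%) had 1 each. The core of the RE1 element, the site bound by the repressor Rest, was in none of the 8 windows and in 0.0365% of all windows. A match is a run of letters and no measure of binding.

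Chrnb2, the other beta subunit able to complete an acetylcholine site, was also higher. Its log2 level was 6.63, 6.29, 5.75 and 5.85 on YFP-positive arrays 1 to 4 and 4.30, 4.55 and 4.55 on YFP-negative arrays 1 to 3. It had the widest spread of the members on YFP-positive arrays (SD 0.41, n = 4), with arrays 1 and 2 high. The difference was 1.66 ± 0.22 (SE), a fold of 3.17 (limma adjusted p = 0.00226, 95% interval 1.15 to 2.18).

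Chrna4, its usual alpha partner in the brain, had the smallest increase that passed. Its log2 level was 6.37, 6.36, 6.20 and 6.11 on YFP-positive arrays 1 to 4 and 5.27, 5.07 and 5.35 on YFP-negative arrays 1 to 3. The groups were separated by less than 1 log2 unit at their nearest arrays. The difference was 1.03 ± 0.10 (SE), a fold of 2.04 (limma adjusted p = 0.000577, 95% interval 0.80 to 1.26).

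Chrna7, whose product forms channels without a beta subunit and is also known from macrophages, was higher in YFP-positive cells. Its log2 level was 7.15, 6.60, 6.67 and 6.58 on YFP-positive arrays 1 to 4 and 5.36, 5.07 and 5.18 on YFP-negative arrays 1 to 3. Array 1 stood above the other YFP-positive arrays, and the groups did not overlap. The difference was 1.55 ± 0.15 (SE), a fold of 2.92 (limma adjusted p = 0.000697, 95% interval 1.18 to 1.91), and 1.41 without YFP-positive array 1, where it also passed. Myeloid markers had list means of 5.48 to 6.57 on YFP-positive and 9.42 to 9.68 on YFP-negative arrays, and their part in the Chrna7 values was not tested.

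The 4 genes that did not pass had narrow intervals. Their levels were low, and those of Chrna6, Chrna9 and Chrnb3 were partly repeated between arrays. The intervals therefore set no tight bound on a difference in RNA. Chrna2, an alpha subunit of some brain interneurons, had a log2 level of 4.67, 4.70, 4.57 and 4.47 on YFP-positive and 4.47, 4.53 and 4.67 on YFP-negative arrays, and a difference of 0.05 (95% interval -0.15 to 0.24, limma adjusted p = 0.755). Chrna6, an alpha subunit known from dopamine neurons and retina, differed by 0.00 (-0.11 to 0.11, limma adjusted p = 0.986), and its level was the same to 6 decimals, 3.31, on all arrays but YFP-positive array 4. Chrnb3, its accessory partner and chromosomal neighbour, had a level of 3.70 on all 4 YFP-positive arrays and 3.78, 3.88 and 3.70 on YFP-negative arrays, a difference of -0.08 (-0.22 to 0.05, limma adjusted p = 0.400). Chrna9, a subunit of inner ear hair cells, had levels of 3.61 to 3.72 on YFP-positive and 3.72 to 3.94 on YFP-negative arrays, a difference of -0.11 (-0.28 to 0.06, limma adjusted p = 0.373). In Chrna2 the groups overlapped, and in Chrna6, Chrna9 and Chrnb3 they met only at the value repeated on several arrays. Values repeated on several arrays are common in this table: 6.13% of genes had the same value on at least 5 arrays, as Chrna6 and Chrnb3 did.

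Levels of different probe sets are not comparable, and the values carry no detection call. As a rough guide to background, 1203 olfactory, vomeronasal and trace amine receptor genes, of which limma called 6 higher and 1 lower, had median log2 levels of 3.21 (YFP-positive) and 3.15 (YFP-negative), with 95th percentiles of 4.79 and 4.77 and 99th percentiles of 5.48 and 5.45. The YFP-positive means of the 6 higher subunit genes, from 6.13 for Chrnb2 to 9.78 for Chrna3, lay above the 99th percentile. In YFP-negative samples the means of Chrna3 (4.68), Chrnb2 (4.47) and Chrna5 (4.27) lay below the 95th percentile, those of Chrna4 (5.23) and Chrna7 (5.20) between the 95th and the 99th, and that of Chrnb4 (5.51) above the 99th. Chrna2, Chrna6, Chrna9 and Chrnb3 lay below the 95th percentile in both groups. Where a YFP-negative level is background, the fold is understated, and a difference between genes that are all dim may not be detectable on these arrays.

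**Figure D3:**
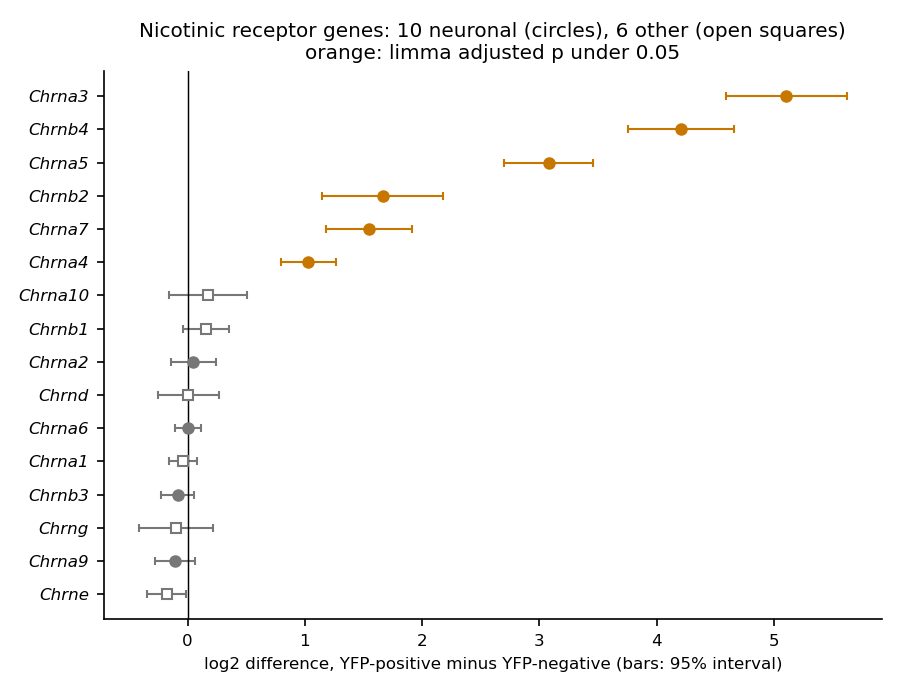
Log2 difference (YFP-positive minus YFP-negative) of the 10 neuronal (circles) and 6 other nicotinic receptor genes (open squares) with 95% intervals of the limma fit, orange where the adjusted p is under 0.05. Only 6 neuronal genes, from Chrna4 at 1.03 to Chrna3 at 5.10, are orange, and the intervals of 9 of the other 10 genes include 0, the exception being Chrne.

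For combinations of subunits, the measurement is limited to which partners were raised in the same sorted population. Both genes of the ganglionic pair Chrna3 and Chrnb4 were higher, as was the accessory gene Chrna5. Both genes of the pair Chrna4 and Chrnb2 were higher by smaller amounts, and so the alternative partners Chrna3 with Chrnb2 and Chrna4 with Chrnb4 were also both higher. Chrna7, which needs no partner, was higher. For receptors with the Chrna6 and Chrnb3 products, with the Chrna2 product, or with the Chrna9 product and its partner Chrna10 (0.17 ± 0.14 SE, limma adjusted p = 0.480), the defining alpha gene did not pass. These arrays do not show whether 2 transcripts were in the same cell or whether proteins assembled.

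The sizes of the increases were compared within arrays for 6 pairs of genes, as the log2 level of the first minus that of the second. The Chrna3 minus Chrnb4 value averaged 0.06 ± 0.22 (SD, n = 4) over YFP-positive samples and -0.84 ± 0.27 (SD, n = 3) over YFP-negative ones, so Chrna3 increased by 0.90 log2 units more. Chrna3 also increased by 2.02 more than Chrna5 and 3.56 more than Chrna7, and Chrnb4 by 2.54 more than its alternative Chrnb2. Chrna5 minus Chrnb4 changed by -1.13 and Chrna4 minus Chrnb2 by -0.63. In all 6 pairs the groups did not overlap, and each had a two-sided exact permutation p of 0.0571 (0.0571 after Benjamini-Hochberg adjustment over the 6), the smallest that 4 against 3 arrays can give, so none could pass 0.05. A YFP-negative level near background, as for Chrna3, Chrna5 and Chrnb2 above, understates that gene's increase, and its part in these values was not tested. All 6 pairs hold at least 1 of these 3 genes, and an understated Chrnb2 increase would make the value for Chrnb4 over Chrnb2 too large.

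Among the YFP-positive arrays, all of the higher subunit genes but Chrnb4 were at their highest on array 1. The pan-neuronal list mean was 8.95, 8.95, 8.49 and 8.30 on arrays 1 to 4. Set against that mean on the same array, the spread of Chrna3 narrowed from a range of 0.65 to 0.19, that of Chrna5 from 0.64 to 0.29 and that of Chrnb2 from 0.88 to 0.43. The range of Chrnb4, which was highest on array 2, went from 0.34 to 0.50, that of Chrna4 from 0.26 to 0.40 and that of Chrna7 from 0.57 to 0.63. Other lists narrowed them too. Against the glial list mean the ranges were 0.25 for Chrna3, 0.24 for Chrna5, 0.48 for Chrnb2, 0.41 for Chrnb4, 0.23 for Chrna4 and 0.45 for Chrna7. Against the ENS progenitor list mean they were 0.28, 0.30, 0.55, 0.35, 0.16 and 0.49 in the same order of genes. The spread of Chrna3, Chrna5 and Chrnb2 thus narrowed against each of the 3 lists, that of Chrna4 and Chrna7 against the glial and progenitor lists but not the neuronal one, and that of Chrnb4 against none. These are descriptions over 4 arrays, and they do not single out one of the lists. The list means of epithelium (7.92, 8.16, 8.78 and 8.99 on arrays 1 to 4), smooth muscle (7.41, 7.98, 8.54 and 8.96), fibroblast and mesenchyme (7.49, 7.75, 8.27 and 8.50) and myeloid markers (5.48, 5.85, 6.37 and 6.57) were instead highest on arrays 3 and 4, and their part in the spread of the subunit genes was not tested. Without arrays 3 and 4 the same 6 subunit genes were higher, with log2 differences of 5.33 for Chrna3, 4.29 for Chrnb4, 3.33 for Chrna5, 1.99 for Chrnb2, 1.67 for Chrna7 and 1.14 for Chrna4.

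**Figure D4:**
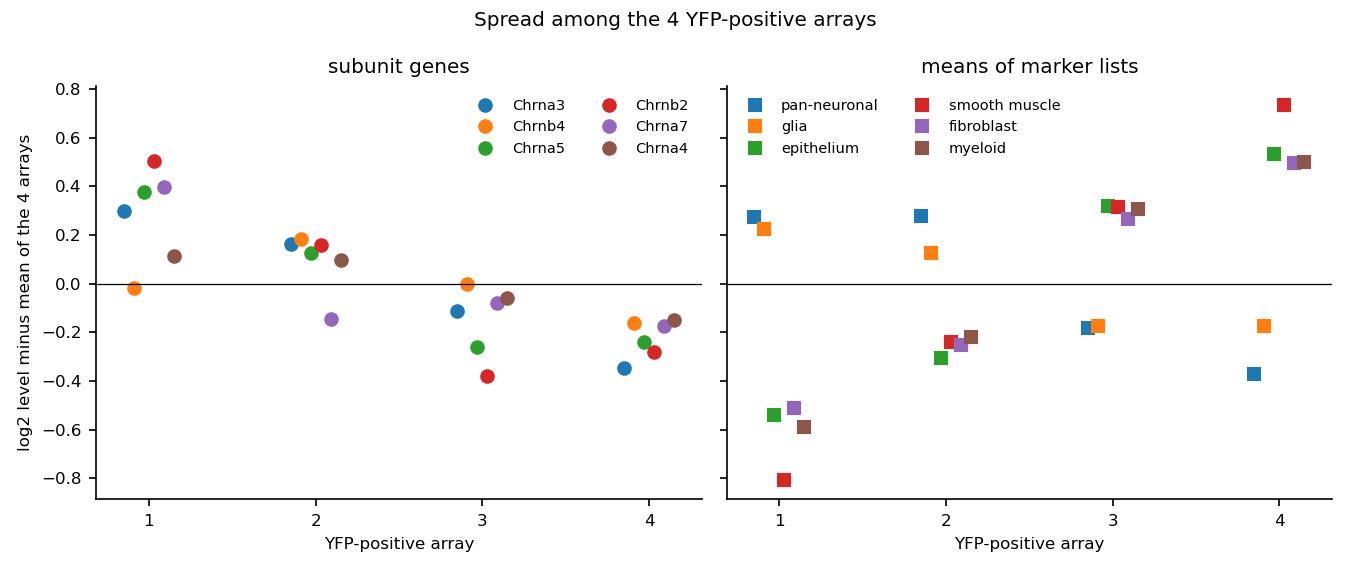
Log2 level minus the mean of the 4 YFP-positive arrays, for the 6 higher subunit genes (left) and for the mean of 6 marker lists (right), by array. Chrna3 and the pan-neuronal mean are above 0 on arrays 1 and 2 and below 0 on arrays 3 and 4, while the epithelium, smooth muscle, fibroblast and myeloid means are the reverse.

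The genes whose centred log2 values over the 7 arrays lay nearest to those of Chrna3 were the receptor phosphatase gene Ptprz1 (root mean square distance 0.23), the neuronal tubulin Tubb3 (0.24), the glial and progenitor fatty acid-binding protein Fabp7 (0.30), the neuronal RNA-binding protein Elavl4 (0.37) and Fstl5 (0.39). Those nearest to Chrnb4 were Fstl5 (0.16), the synaptic vesicle protein gene Syt1 (0.17), Zfp804a (0.21), Fam163a (0.23) and the adhesion molecule Chl1 (0.24). Chrna3 and Chrnb4 were 0.49 apart. Subunit genes and predicted or unnamed loci (Gm followed by digits, or names ending in Rik) were left out of the search for nearest genes. The distances are dominated by the size of the group difference, which both sets of neighbours share, and carry no test.

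The 6 remaining nicotinic genes, the muscle-type subunits Chrna1, Chrnb1, Chrnd, Chrne and Chrng and the hair cell subunit Chrna10, had 0 higher and 0 lower in limma, with 0 higher and 1 lower at an unadjusted p under 0.05. Their log2 differences ran from -0.18 for Chrne (limma adjusted p = 0.144) to 0.17 for Chrna10, with a median of -0.02. The muscle-type values were -0.04 for Chrna1, 0.15 for Chrnb1, 0.01 for Chrnd and -0.10 for Chrng. Over all genes 8.39% were higher and 9.11% lower, and 0 of 6 cannot be set apart from those shares.

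Genes that supply and clear acetylcholine were mostly higher beside the receptor genes. The shares over all genes were 8.39% higher and 9.11% lower in limma. Of 8 measured, 7 were higher and 0 lower in limma (0 lower at an unadjusted p under 0.05). They were led by the vesicular transporter Slc18a3 (3.34 ± 0.23), the choline transporter Slc5a7 (2.43 ± 0.21), the esterase Ache (1.98 ± 0.32) and its membrane anchor Prima1 (1.76 ± 0.16, log2 difference ± SE). Leaving out YFP-positive array 2, or YFP-negative array 3, left 5 of them higher. The test against a 1.5-fold difference called 4 of the 8 higher, where it called 469 of all 19938 genes higher. Muscarinic receptors, the G-protein-coupled receptors for the same transmitter, had 0 higher and 1 lower of 5 (2 and 2 at an unadjusted p under 0.05). With 5 genes, these limma counts cannot be set apart from the shares over all genes. Chrm3, a receptor of smooth muscle and glands, was lower at -0.78 ± 0.15 (limma adjusted p = 0.0135), and did not pass when YFP-negative array 1 (limma adjusted p = 0.0570) or 2 (0.0620) was left out. Chrm2, the other main muscarinic receptor of smooth muscle, differed by -0.72 ± 0.23 (limma adjusted p = 0.0799). Leaving out YFP-negative array 3 brought it past the threshold (limma adjusted p = 0.0226). Smooth muscle markers, in the same direction, had list means of 7.41 to 8.96 on YFP-positive and 9.25 to 9.70 on YFP-negative arrays, and their part in the muscarinic values was not tested. Chrm1 (0.43 ± 0.17), Chrm4 (0.15 ± 0.06) and Chrm5 (-0.05 ± 0.05) did not pass.

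Genes of proteins that help nicotinic receptors assemble or that modulate them mostly did not pass in limma. Of 13 measured, 1 was higher and 1 lower, near the shares over all genes (8.39% higher and 9.11% lower). At an unadjusted p under 0.05, 5 were higher and 1 lower. The groups did not overlap with YFP-positive higher for 4 and lower for 1, against 13.5% of all genes in each direction. Ric3, a chaperone of Chrna7 and other subunits, rose by 0.77 ± 0.10 (limma adjusted p = 0.00256). Ly6e, a Ly6-family surface protein that is also widespread in blood and epithelial cells, fell by 2.70 on the log2 scale. The assembly factor gene Tmem35a was at 0.71 ± 0.21 (limma adjusted p = 0.0645) and the calcium sensor gene Vsnl1 at 0.74 ± 0.21 (0.0518), both named after their values were seen, and both passed as higher without YFP-negative array 1 (0.0279 and 0.0191), which made 3 higher genes in place of 1. Lypd1, also named after its values were seen (limma adjusted p = 0.0971), passed without YFP-positive array 1 (0.0486), which made 2.

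Of 9 genes for anchoring receptors at synapses, 4 were higher and 1 lower, where 8.39% of all genes were higher and 9.11% lower. Dlg2, the scaffold PSD-93 of ganglionic nicotinic synapses, rose by 3.67 ± 0.10, and Agrn, the organizer of the nerve-muscle synapse, by 1.18 ± 0.14 (log2 difference ± SE). Apc rose by 0.60 ± 0.15 (limma adjusted p = 0.0360) and Dlg4, the scaffold PSD-95, by 0.44 ± 0.11 (0.0406), the latter named after its values were seen. Each of these was lost in 6 of the 7 fits that left out an array, Apc in all but that without YFP-positive array 1 and Dlg4 in all but that without YFP-positive array 3. The higher genes then numbered 2 without YFP-positive array 2 or 4 or any YFP-negative array, and 3 without YFP-positive array 1 or 3. Dlg1, a related scaffold, was lower at -0.44 ± 0.05. The muscle synapse genes Rapsn, Musk, Dok7 and Lrp4, named after their values were seen, had log2 differences between -0.19 and 0.17 and did not pass.

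Of 9 measured transcription factors linked to the promoters of the cluster or to autonomic neurons, 4 were higher and 1 lower. Over all genes, 8.39% were higher and 9.11% lower. Phox2a (2.74 ± 0.20), Sox10 (2.52 ± 0.15), Hand2 (1.97 ± 0.14) and Insm1 (1.52 ± 0.18) were higher (log2 difference ± SE). Sox10 and Hand2 were also counted among the ENS progenitor markers above, and Sox10 among the glial markers. The 4 that did not pass, named after their values were seen, were Sp1 (-0.21 ± 0.12), Sp3 (-0.31 ± 0.10), Pou4f1 (0.38 ± 0.16) and Pou4f3 (-0.02 ± 0.08). Sp3 had a limma adjusted p of 0.0716 and passed as lower with array weights (0.0274). Rest, the repressor of neuronal genes, was lower at -0.73 ± 0.15 (limma adjusted p = 0.0173), named after its values were seen, and did not pass when YFP-positive array 1 (limma adjusted p = 0.0529) or the YFP-negative array 3 (0.0550) was left out.

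**Figure D5:**
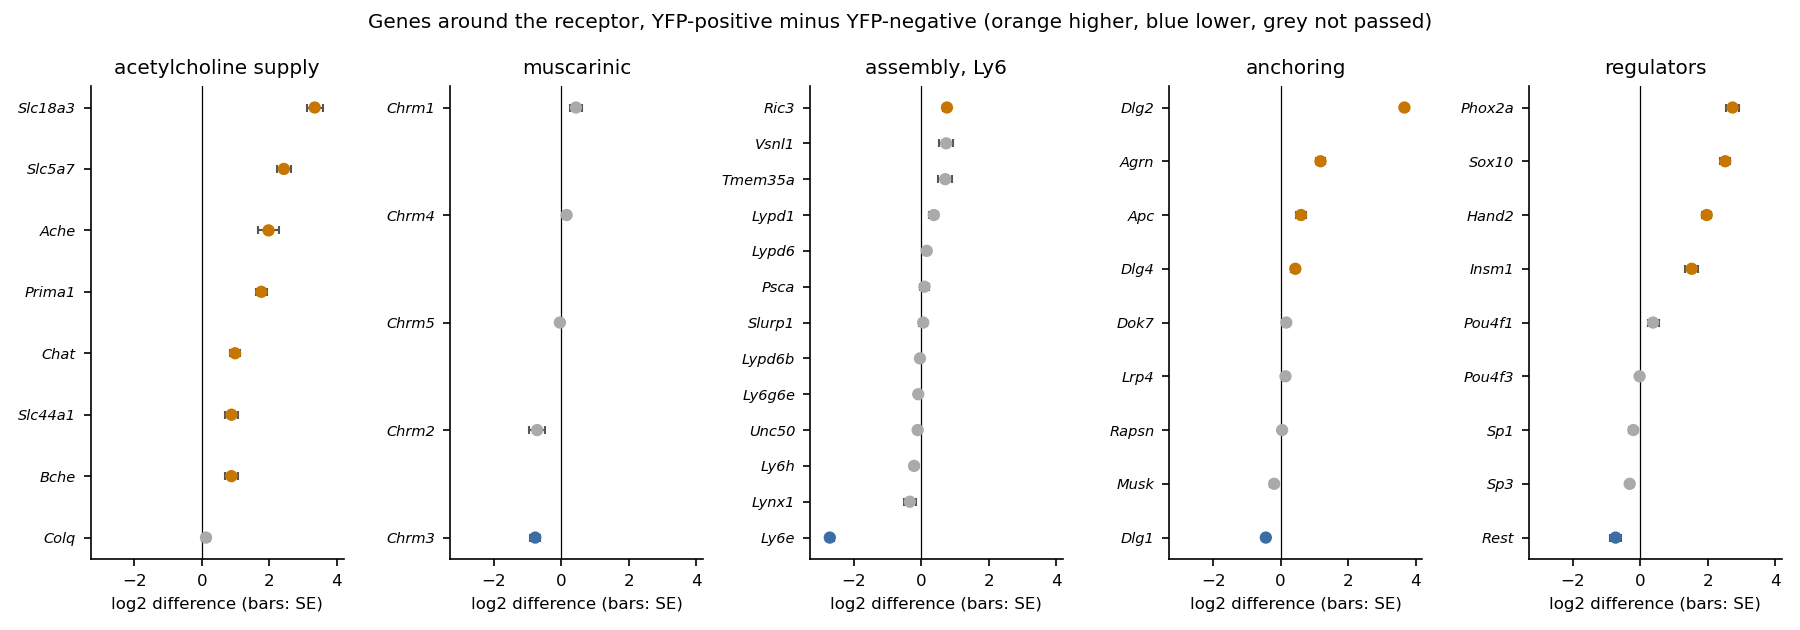
Log2 difference (YFP-positive minus YFP-negative, bars SE) of genes for acetylcholine supply, muscarinic receptors, receptor assembly and Ly6 proteins, synaptic anchoring and promoter regulators; orange is higher, blue lower and grey did not pass at a limma adjusted p of 0.05. Acetylcholine supply has 7 of 8 genes in orange, and Dlg2 at 3.67 is the highest value shown.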

How the data were processed

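RNA from 7 sorted samples was measured on Affymetrix microarrays. Per the labels' protocols, Trizol was used to extract RNA from the sorted cells, and a whole-transcriptome amplification kit for picogram to nanogram inputs gave biotinylated cDNA. Each deposited value is the log2 level of a probe set, and the submitters' processing notes name RMA and Affymetrix Expression Console. RMA and amplification can both compress differences. Software versions and the set of arrays normalized together are not stated. The number of arrays limits the precision.

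All columns were matched to samples by name. Of 35556 probe sets, 21789 had 1 gene symbol, 1621 had several and 12146 were not listed, and the last 2 kinds were left out. The probe set with the highest mean was kept per gene (each subunit gene had 1). Listed genes without such a probe set are not analysed here. No build is named for the array annotation, so gene order and promoter windows come from RefSeq (GRCm38.p6) alone.

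The test was lmFit with eBayes in limma 3.58.1 (R 4.3.3), group as the only term, with Benjamini-Hochberg adjustment over 19938 genes and a threshold of 0.05. The fit was tested on simulated data. Intervals and SE are those of the moderated fit. Exact permutation tests used scipy 1.17.1 (Python 3.11.15). Named genes are all 10 subunit genes, all other nicotinic and muscarinic receptor genes, from each further list the 4 called genes that changed most (or fewer), the 3 nearest measured neighbours on each side of the cluster and the 5 nearest patterns to Chrna3 and to Chrnb4. The members, lists and alternatives were chosen with earlier results of these data known. Alternatives were other eBayes options, scaling, filtering, probe set rules, array weights, a test against 1.5-fold (treat), a replicate block and arrays left out. Their effect on the other lists was read after seeing the data. The labels do not say that a replicate number marks a shared animal, litter or day, so the numbers were not taken to pair the samples. Deviations of same-numbered arrays from their group means correlated at 0.01, -0.09 and 0.04, which with so few arrays cannot exclude a pairing.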

Additional observations from a re-analysis of the deposited data

Results flagged for a closer look

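Of the 10 subunit genes, 3 had a YFP-positive array that stood apart from the other 3 by Dixon's gap ratio (the gap to the nearest array over the whole range, past its 95% critical value for 4 samples), which chance gives in about 1 in 20 groups. Chrna7 had a gap ratio of 0.834, with a log2 level of 7.15 on array 1 against 6.58 to 6.67 on the others. Chrna6 and Chrna9 each had a gap ratio of 1.0, since the other 3 arrays held the same value to 6 decimals, and the arrays that stood apart were 0.01 and 0.11 away.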

How the results depend on the processing

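The counts of 6 higher and 0 lower subunit genes, and the call of each of the 10 genes that was tested, were the same under all 17 alternatives, and dropping the dimmest genes by mean level left Chrna2, Chrna6, Chrna9 and Chrnb3 untested. The range over the alternatives of the log2 difference was 4.94 to 5.33 for Chrna3, 3.96 to 4.34 for Chrnb4, 2.95 to 3.33 for Chrna5, 1.49 to 1.99 for Chrnb2, 1.41 to 1.67 for Chrna7 and 0.95 to 1.14 for Chrna4, with a highest adjusted p of 0.0306 for Chrna4 against a 1.5-fold difference. With the replicate number as a block the count was 6 and the highest adjusted p of these genes 0.0266, for Chrnb2, and no call of a subunit gene changed. No array's deviations correlated best with those of its own number, which with so few arrays cannot exclude a pairing. The 6 pair comparisons kept their direction in the 10 alternatives run for each. Over all genes, the test against 1.5-fold called 469 higher and 558 lower in place of 1672 and 1817, and leaving out YFP-negative array 2 gave 1166 lower. With 4 and 3 arrays and no detection calls, small differences of dim genes such as Chrna6 or Chrna9 are beyond reach.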
